A study of Mus musculus with 6 samples.

Results

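Ceruloplasmin (Cp) and 9 other genes of cellular iron handling were followed in NIH/3T3 cells depleted of the glycolytic enzyme aldolase A. They are 10 of the 18001 genes in the deposited expression table. Cp was chosen by its log2 fold change between siAldoa and siCtrl, among the 10 highest of all genes in this same comparison, so its change is given as a description and without a test. The other 9 genes have known roles, and they too were chosen with earlier results of these data known: Tfrc, Slc11a2, Slc39a14 and Steap3 in iron uptake, Fth1 and Ftl1 in storage, Slc40a1 in export, and Aco1 and Ireb2 as regulators.

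NIH/3T3 cells, an immortalized line of mouse embryonic fibroblasts, were grown in medium with 10% fetal calf serum and transfected for about 48 h with siRNA: 4 siRNAs that target Aldoa, pooled (siAldoa), or non-targeting siRNAs, pooled (siCtrl). Each group had 3 replicates, from which poly(A) RNA was sequenced. Expression is given as CPM, the reads of a gene scaled by an effective library size so that libraries of different depth compare. All libraries come from 1 cell line with 1 siRNA pool, and nothing in the labels says how separate the replicate cultures were, so p-values measure the spread between these samples.

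Summed over the deposited genes, the libraries held between 3692341 and 3771129 reads, and 3 reads in a library correspond to between 0.79 and 0.82 CPM. Aldoa itself fell to 12.7% of its control level, from a mean of 534 CPM to one of 68.0 CPM (SD 12 and 4.68, n = 3 each; log2 fold change -2.96, limma adjusted p = 1.3e-21). All 8 fibroblast markers were in the table, with Col1a2 at 4949 CPM, Vim at 3731 CPM and Col1a1 at 3196 CPM in siCtrl, and their summed level was lower in siAldoa (10803 to 11475 CPM, against 13075 to 13612 CPM in siCtrl). Of 9 hepatocyte markers, the cells best known for secreting ceruloplasmin, 1 was in the table, Serpina1a, with 10 to 20 reads per library. Of 10 macrophage markers, 7 were in the table, and their summed level was higher in siAldoa (34.5 to 35.9 CPM, against 18.9 to 26.6 CPM). The difference lay mainly in the growth factor receptor gene Csf1r, at 0.992 against 7.91 CPM, and in Cd14, at 12.4 against 19.2 CPM. Cd68 was lower in siAldoa, at 2.70 against 1.34 CPM, and Lyz2 was at 4.14 against 4.53 CPM. The defining markers Ptprc, Adgre1 and Itgam had lower means in siAldoa, on at most 11, 6 and 3 reads in any library. The median log2 fold change of the 7 macrophage markers was -0.06. The part of these shifts in the results below was not tested. In bulk RNA, fewer cells that express a gene cannot be told apart from less RNA of that gene per cell.

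Cells take up most of their iron as transferrin bound to the transferrin receptor, reduce it in endosomes and carry it into the cytosol, where the surplus is stored in ferritin. Ferroportin, encoded by Slc40a1, is the known exporter of iron from animal cells, and copper-containing ferroxidases such as ceruloplasmin oxidize the exported ferrous iron so that transferrin can bind it. The iron regulatory proteins IRP1 (Aco1) and IRP2 (Ireb2) bind a stem-loop called the iron-responsive element (IRE) when iron is low, which blocks translation from an element in the 5′ UTR and protects the transcript from decay through elements in the 3′ UTR.

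The elements are shown because they mark those of the 10 genes in which a search for the letters of this known iron switch found a match. They were read from GENCODE transcripts of GRCm38 (mm10), 5′ to 3′ on the sense strand, and the capitals mark the 6-base loop. The Fth1 element lies in the 5′ UTR at chr19:9982732-9982760 on the plus strand, the Ftl1 element in the 5′ UTR at chr7:45459779-45459807 on the minus strand, and the Slc40a1 element in the 5′ UTR at chr1:45925465-45925493 on the minus strand. In Tfrc the search found 4 elements in the 3′ UTR on the plus strand of chromosome 16, starting at 32631219, 32631598, 32631663 and 32631710. An element with other loop letters would not have been found. The Slc11a2 element lies in the 3′ UTR at chr15:100395153-100395181 on the minus strand.
Fth1: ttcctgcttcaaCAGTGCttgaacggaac
Ftl1: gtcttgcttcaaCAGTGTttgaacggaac
Slc40a1: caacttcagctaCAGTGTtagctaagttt
Tfrc element 1: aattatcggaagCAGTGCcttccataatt
Tfrc element 2: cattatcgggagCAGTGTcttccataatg
Tfrc element 3: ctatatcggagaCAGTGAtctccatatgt
Tfrc element 4: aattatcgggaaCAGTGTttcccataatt
Slc11a2: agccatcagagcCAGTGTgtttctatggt

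The search was for the letters CNNNNNCAGTGN on the sense strand of the transcript, with the 5 bases before the loop able to pair with the 5 bases after it (G-U pairs allowed). All 5 pairs formed in the elements of Fth1, Ftl1, Slc40a1 and Tfrc, and 4 of 5 formed in Slc11a2. The Slc11a2 match was found in 1 transcript of the gene, while CPM is counted per gene and does not separate transcripts. Among 13591 genes searched, 20 (0.147%) held the motif with 5 pairs in a 5′ UTR and 103 (0.758%) in a 3′ UTR. With at least 4 pairs the shares were 0.89% and 4.805%, so a match with 4 pairs in a 3′ UTR, as in Slc11a2, was found in 653 genes. The UTRs of Cp, Slc39a14, Steap3, Aco1 and Ireb2 held no match with 4 or more pairs, which says only that these letters are not in these transcripts.

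Ceruloplasmin was expressed at a low level in siCtrl and at about 5 times that level in siAldoa. Cp (ENSMUSG00000003617) lies on chromosome 3 of GRCm38 from 19957054 to 20009145 on the plus strand. It was measured at 3.29, 3.56 and 1.85 CPM in siCtrl replicates 1, 2 and 3 and at 11.3, 15.5 and 16.2 CPM in siAldoa replicates 1, 2 and 3. Every siAldoa library was above every siCtrl library, and the lowest siAldoa library was about 3 times the highest siCtrl library. The means were 2.90 ± 0.916 CPM and 14.4 ± 2.64 CPM (SD, n = 3 each), so siAldoa was at 495% of siCtrl.

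Behind these values stood 12, 13 and 7 reads in siCtrl and 42, 58 and 62 reads in siAldoa. The summed reads were 32 in siCtrl (exact Poisson 95% interval 21.9 to 45.2) and 162 in siAldoa (138 to 189), intervals that cover counting error only. The log2 fold change was 1.99 (standard error 0.23), rank 4 among all genes. It was computed on log2(CPM + 1), a scale on which changes of low genes come out too small. The last gene inside the 10 highest was Prl2c5, at 1.66, and the first outside was Slc6a12, at 1.64. Prl2c5 had 1 read in 1 siCtrl library, and Slc6a12 had no siCtrl read, so their fitted values depend on the added 1 CPM. In siCtrl Cp was above 30.3% of all genes in mean CPM. The exons of Cp share 108 bases with Hps3 on the opposite strand, and whether strand was used in counting is not given in the sources used here. Hps3 had a mean of 19.1 CPM in siCtrl and 15.6 CPM in siAldoa (log2 fold change -0.26, limma adjusted p = 0.24).

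The genes whose profile over the 6 libraries was most like that of Cp were Fgd3, Igfbp7 and Gm12138, with root mean square differences of 0.257, 0.260 and 0.282 between centred log2(CPM + 1) values, among 10059 genes with a mean of at least 10 CPM. Fgd3 was at 12.6, 14.5 and 10.6 CPM in siCtrl and 32.1, 43.6 and 39.8 CPM in siAldoa. Igfbp7, a secreted binding protein, was at 12.9, 9.30 and 10.1 CPM in siCtrl and 36.2, 43.8 and 40.8 CPM in siAldoa. Since they were picked for likeness to Cp, their higher siAldoa levels follow from the choice.

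**Figure D1:**
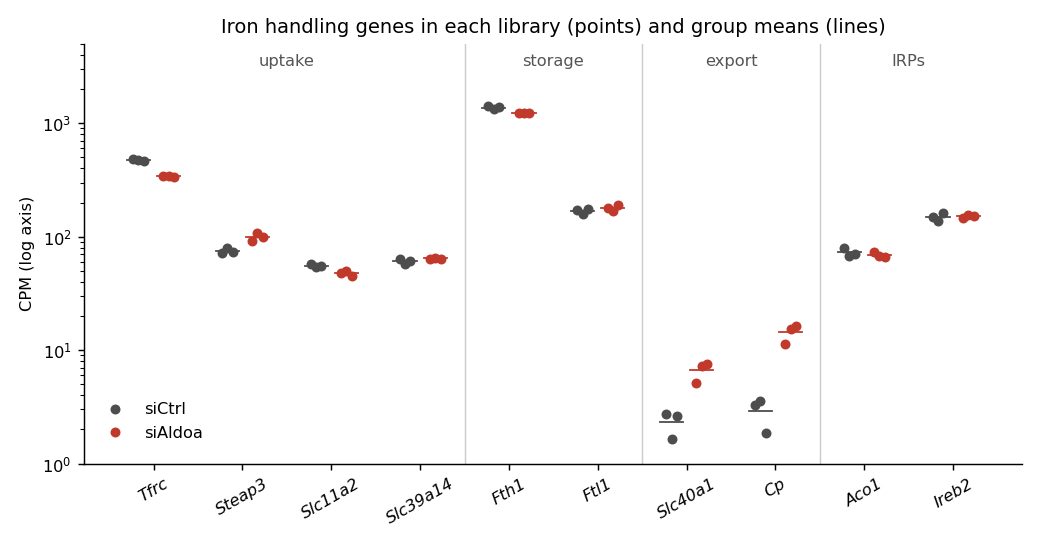
Expression of the 10 genes in CPM on a log axis, with 1 point for each library, lines for the group means and genes ordered by role. Slc40a1 and Cp lie lowest of the 10 and are separated between siCtrl (grey) and siAldoa (red), while Tfrc at 340 against 473 CPM is separated in the other direction.

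Of the 9 genes other than Cp, 2 were called higher in siAldoa (Slc40a1 and Steap3), 3 were called lower (Tfrc, Fth1 and Slc11a2) and 4 were not called (Ftl1, Slc39a14, Aco1 and Ireb2). A gene is called here when its adjusted p from limma, over all 18001 genes, is under 0.05. Over all genes 20.4% were called, 10.4% higher and 10.0% lower, and over the 10059 genes with a mean of at least 10 CPM, where all of the 9 but Slc40a1 lie, 32.6% were called, 15.9% higher and 16.6% lower. In 3 of the 9 genes every siAldoa library was above every siCtrl library, and in 3 every one was below, against 16.7% and 17.1% of all genes and 22.9% and 23.8% of those with at least 10 CPM. The count is small and the members were not chosen at random, so these shares serve only as a background. Replicate 1 of both groups differed from replicates 2 and 3 in when spike-in RNA was added. Within replicates 2 and 3 the log2 fold changes were 2.23 for Cp, 1.44 for Slc40a1, 0.42 for Steap3 and -0.47 for Tfrc. In that fit 3 of the 9 genes were called by limma, beside 1432 of all 18001 genes. Replicate 1 holds 1 library per group and gives no test.

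The gene for the exporter ferroportin rose, and so did that of the ferroxidase hephaestin. Slc40a1 (ENSMUSG00000025993, chr1:45908068-45926523, minus strand) was at 2.74, 1.64 and 2.65 CPM in siCtrl and at 5.13, 7.22 and 7.59 CPM in siAldoa. The lowest siAldoa library was close to 2 times the highest siCtrl library. The means were 2.34 ± 0.609 CPM and 6.65 ± 1.33 CPM (SD, n = 3 each), which is 284% of the control (log2 fold change 1.20, standard error 0.25, 95% interval 0.68 to 1.71, limma adjusted p = 0.0011). The gene is thinly covered, with 26 summed reads in siCtrl (exact Poisson 95% interval 17 to 38.1) and 75 in siAldoa (59.0 to 94.0). The call was lost when replicate 2 of both groups was left out (adjusted p from limma 0.089) or replicate 3 of both groups (0.098), and it held when any 1 library was left out.

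Hephaestin (Heph), a membrane-bound ferroxidase related to ceruloplasmin, was at 7.67, 8.75 and 8.20 CPM in siCtrl and at 15.1, 16.0 and 14.1 CPM in siAldoa. Its groups did not overlap, and the log2 fold change was 0.81 with a standard error of 0.17 (limma adjusted p = 0.00096), a call lost without replicate 1 or replicate 3 of both groups (adjusted p from limma 0.053 and 0.055). Another multicopper ferroxidase, Hephl1, had 2 to 6 reads per library and a log2 fold change of -0.15 (adjusted p = 0.78, limma), so a difference was not detectable at this depth. Abcg2, a heme exporter among other substrates, was also at 2 to 6 reads and was not called. Heph was the more abundant ferroxidase per length in siCtrl, with 1.37 CPM per kb of exon against 0.500 for Cp. In siAldoa the per-length levels were 2.52 for Heph and 2.48 for Cp.

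Of the genes for ferritin, the iron storage shell, Fth1 fell slightly and Ftl1 was not called. The heavy chain gene Fth1 (ENSMUSG00000024661, chr19:9980598-9985098, plus strand) was at 1409, 1328 and 1390 CPM in siCtrl and at 1242, 1228 and 1244 CPM in siAldoa. All siAldoa libraries were below all siCtrl libraries. Fth1 fell by 0.15 on the log2 scale (standard error 0.030, 95% interval -0.21 to -0.089, limma adjusted p = 0.00069), from 1375 ± 42.5 CPM to 1238 ± 8.86 CPM (SD, n = 3 each), or 90% of the control. The Fth1 call was lost in 4 of 17 alternatives, with adjusted p from limma of 0.14 under quantile normalization, 0.20 without the mean-variance trend, 0.089 without replicate 1 of both groups and 0.087 without replicate 3.

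The light chain gene Ftl1 (ENSMUSG00000050708, chr7:45457944-45459884, minus strand) was at 171, 157 and 177 CPM in siCtrl and at 178, 170 and 191 CPM in siAldoa. The groups overlapped, with means of 168 ± 10.1 CPM and 180 ± 11 CPM (SD, n = 3 each; log2 fold change 0.09, 95% interval -0.022 to 0.21, limma adjusted p = 0.28). Its exons share 355 bases with Gm10252 on the opposite strand and 109 bases with the miRNA gene Gm22133.

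Both ferritin genes have similar copies in the table. Reads of Ftl1 cannot be told apart with certainty from those of Ftl1-ps1 and Ftl1-ps2, while Gm7541 and the Fth1 copy Gm6977 differ more. The pseudogene Ftl1-ps1 is 99.6% identical to Ftl1 over 910 bases and was counted at a higher level than Ftl1 itself, 431 ± 15.0 CPM in siCtrl and 469 ± 8.89 CPM in siAldoa (SD, n = 3 each; log2 fold change 0.12, limma adjusted p = 0.024). Ftl1-ps2, 97.8% identical over 549 bases, was at 16.7 CPM and 19.4 CPM (adjusted p = 0.40, limma), and Gm7541, 90.7% identical over 546 bases, was at 0.359 CPM and 1.15 CPM. Ftl1 supplied 27.1% of the sum of these genes.

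Summed over Ftl1 and its 3 copies, the level was 622, 588 and 640 CPM in siCtrl and 658, 670 and 679 CPM in siAldoa. With the copies added the groups no longer overlapped, at 617 ± 26.4 CPM and 669 ± 10.2 CPM (SD, n = 3 each; log2 fold change 0.12, two-sided exact permutation p = 0.1, which is the lowest value possible with 3 libraries in each group). Fth1 has 1 such copy, Gm6977, 90.5% identical over 524 bases and at 416 CPM in siCtrl and 383 CPM in siAldoa (limma adjusted p = 0.066). The sum of the pair was 1792 ± 65.8 CPM in siCtrl and 1621 ± 26.1 CPM in siAldoa (SD, n = 3 each; log2 fold change -0.14, two-sided exact permutation p = 0.1), so the heavy chain stayed lower and the light chain slightly higher with the copies added.

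**Figure D2:**
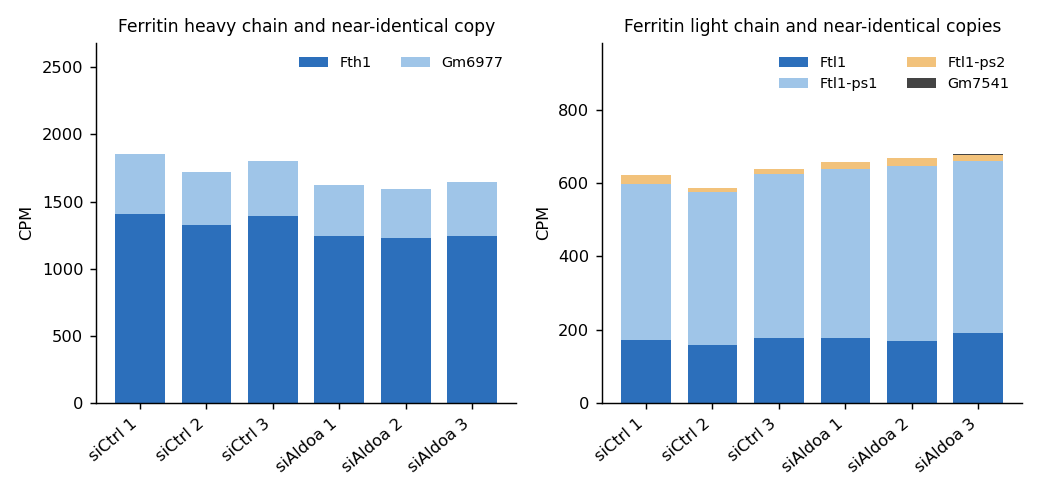
Stacked CPM of Fth1 with its copy (left) and Ftl1 with its 3 copies (right) in each library, with bars starting at 0. The light chain sum is mostly Ftl1-ps1 and lies between 588 and 640 CPM in siCtrl and between 658 and 679 CPM in siAldoa, while the heavy chain sum is lower in siAldoa.

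Among the uptake genes the transferrin receptor had the firmest change. Tfrc (ENSMUSG00000022797, chr16:32608920-32632794, plus strand), which internalizes iron-loaded transferrin, was at 480, 473 and 465 CPM in siCtrl and at 341, 343 and 336 CPM in siAldoa. The replicates lay within a few percent of each other and the groups were far apart. Tfrc fell from 473 ± 7.65 CPM to 340 ± 3.43 CPM (SD, n = 3 each), or 71.9% of the control (log2 fold change -0.47, standard error 0.037, 95% interval -0.55 to -0.40, limma adjusted p = 1.7e-09). The call was the same in all 17 alternatives, with log2 fold changes from -0.49 to -0.39, although 1 of them, TMM scaling, repeated the main fit.

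Steap3 (ENSMUSG00000026389, chr1:120190757-120272705, minus strand), the endosomal reductase that turns ferric into ferrous iron after transferrin uptake, moved the other way. It was at 71.8, 79.1 and 73.8 CPM in siCtrl and at 92.6, 107 and 98.7 CPM in siAldoa, with no overlap. The means were 74.9 ± 3.76 CPM and 99.5 ± 7.34 CPM (SD, n = 3 each), which is 133% of the control (log2 fold change 0.40, standard error 0.068, 95% interval 0.26 to 0.54, limma adjusted p = 0.00010). The call was lost only without replicate 3 of both groups, where the adjusted p from limma was 0.090.

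Slc11a2 (ENSMUSG00000023030, chr15:100387898-100425072, minus strand) encodes the divalent metal transporter DMT1, which carries ferrous iron out of the endosome. It was at 57.0, 54.4 and 55.6 CPM in siCtrl and at 48.0, 49.4 and 44.8 CPM in siAldoa. All siAldoa libraries were lower, at 85.2% of the control on average, with means of 55.7 ± 1.27 CPM and 47.4 ± 2.40 CPM (SD, n = 3 each; log2 fold change -0.23, standard error 0.078, limma adjusted p = 0.041). This call was marginal. It was lost in 12 of 17 alternatives, with adjusted p from limma of 0.065 with the replicate block and from 0.054 to 0.14 when any 1 library was left out. Its exons share 402 bases with Gm5475 on the opposite strand.

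Slc39a14 (ENSMUSG00000022094, chr14:70303469-70351425, minus strand) encodes ZIP14, a plasma membrane importer of iron that is not bound to transferrin. It was at 63.0, 58.0 and 61.1 CPM in siCtrl and at 64.2, 65.5 and 63.9 CPM in siAldoa. The siAldoa libraries all lay above the siCtrl libraries by a small margin, and the gene was not called (60.7 ± 2.53 against 64.5 ± 0.838 CPM, SD, n = 3 each; log2 fold change 0.09, 95% interval -0.059 to 0.23, limma adjusted p = 0.44).

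Neither of the genes for the iron regulatory proteins was called. Aco1 (ENSMUSG00000028405, chr4:40143081-40198338, plus strand), whose product is cytosolic aconitase when it holds an iron-sulfur cluster and IRP1 when it does not, was at 80.0, 68.1 and 70.9 CPM in siCtrl and at 72.9, 67.9 and 66.5 CPM in siAldoa. The groups overlapped (log2 fold change -0.08, standard error 0.074, 95% interval -0.23 to 0.076, limma adjusted p = 0.54). Ireb2 (ENSMUSG00000032293, chr9:54863789-54912530, plus strand), whose product IRP2 is degraded when iron is plentiful, was at 150, 138 and 161 CPM in siCtrl and at 147, 156 and 153 CPM in siAldoa. Its groups also overlapped (log2 fold change 0.03, standard error 0.057, 95% interval -0.091 to 0.14, limma adjusted p = 0.82). These intervals bound the difference in RNA and say nothing of the activity of either protein.

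**Figure D3:**
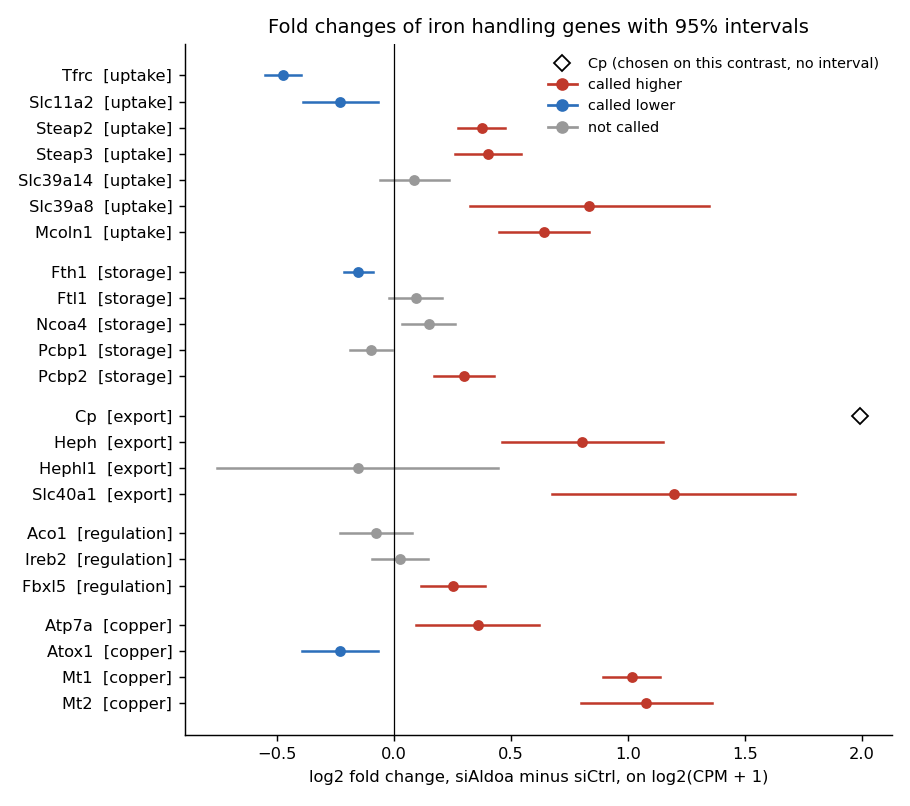
Log2 fold changes of the 10 genes and of companion genes of the same roles on the log2(CPM + 1) scale, siAldoa minus siCtrl, with points for estimates and lines for 95% intervals. Tfrc at -0.47 is lowest, while Cp at 1.99 (diamond, drawn without an interval), Slc40a1 at 1.20 and the metallothioneins Mt1 and Mt2 lie highest.

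Ordered by CPM per kb of exon in siCtrl, the 10 genes ran from Fth1 (883) through Ftl1 (174), Tfrc (90.9), Ireb2 (25.9), Aco1 (19.1), Steap3 (13.3), Slc39a14 (11.7) and Slc11a2 (9.71) to Slc40a1 (0.695) and Cp (0.500). Neighbours in this order did not overlap between libraries except Slc40a1 and Cp. In siAldoa Cp (2.48 CPM per kb) stood above Slc40a1 (1.97), again with overlapping libraries. Steap3 came up to 17.6 CPM per kb and overlapped with Aco1 at 18.0.

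Read by their known elements, the genes with an IRE did not share a direction. Among the genes listed as carrying an element in the 5′ UTR, Slc40a1 was called higher and Fth1 lower, and Ftl1 and Epas1 were not called. Epas1 had at most 1 read per library. Of the 5 genes listed with an element in the 3′ UTR, 3 were called lower and none higher, beside 10.0% lower over all genes and 16.6% of those with at least 10 CPM. These were Tfrc, Slc11a2 and the actin-binding profilin gene Pfn2, which was at 170, 176 and 191 CPM in siCtrl and at 120, 121 and 129 CPM in siAldoa (log2 fold change -0.54, limma adjusted p = 1.2e-07). The search found no element with 4 or more pairs in the UTRs of Pfn2, Cdc42bpa or Epas1, which are listed from general knowledge, and the Slc11a2 call is the marginal one described above. Cdc14a (log2 fold change 0.16, adjusted p = 0.69) and Cdc42bpa (0.08, adjusted p = 0.34, limma) were not called. The median of the 5 was -0.23, beside -0.002 over all genes.

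Beyond the 10 members, 70 other genes from 8 lists of iron, heme and copper genes were in the table. Of these, 14 were called higher, 9 lower and 47 were not called, with a median log2 fold change of 0.08. Over all genes 10.4% were called higher and 10.0% lower, and of those with at least 10 CPM 15.9% and 16.6%. Of the 23 calls, 14 held when each single library was left out in turn, 10 of them higher and 4 lower, and 9 were lost without at least 1 library. Without replicate 3 of both groups 4 were called higher and 1 lower, beside 494 and 520 of all 18001 genes.

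Of 6 further uptake genes, 3 were called higher and none lower, beside 10.4% higher over all genes and 15.9% of those with at least 10 CPM. Mcoln1, a lysosomal channel that can release iron, rose from 29.0 ± 1.22 CPM to 45.9 ± 3.04 CPM (SD, n = 3 each; log2 fold change 0.64, limma adjusted p = 1.6e-05). Slc39a8, encoding the metal importer ZIP8, was at 1.92, 3.56 and 3.44 CPM in siCtrl and 6.21, 5.61 and 6.02 CPM in siAldoa (log2 fold change 0.83, limma adjusted p = 0.017). The Slc39a8 call, on 7 to 23 reads, was lost without siCtrl replicate 1 or without any 1 siAldoa library (adjusted p from limma 0.055 to 0.097). The other was Steap2, a metalloreductase related to Steap3, named after its values were seen, at 155 against 201 CPM (log2 fold change 0.37, limma adjusted p = 3.8e-06). Steap1, Scara5 and Lcn2 were not called.

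Of the 3 further storage genes, the iron chaperone gene Pcbp2 rose from 99.5 to 123 CPM (log2 fold change 0.30, limma adjusted p = 0.00093). Its call was lost without replicate 1 or replicate 3 of both groups (adjusted p from limma 0.087 and 0.098). Ncoa4, the receptor that delivers ferritin to autophagy, was at 124, 117 and 123 CPM in siCtrl and 136, 138 and 130 CPM in siAldoa, with no overlap but above the threshold (log2 fold change 0.15, limma adjusted p = 0.055). Pcbp1 was not called.

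Of the 5 further regulators, Fbxl5 rose and Neo1 was called higher. Fbxl5, the iron-sensing subunit of the ligase that degrades IRP2, was at 65.7, 67.3 and 65.9 CPM in siCtrl and at 82.6, 78.6 and 76.7 CPM in siAldoa. Its groups did not overlap (log2 fold change 0.25, limma adjusted p = 0.0074). The Fbxl5 call was lost in 5 of 17 alternatives, with adjusted p of 0.074 from limma without the mean-variance trend, 0.068 by DESeq2, and 0.11, 0.079 and 0.076 from limma without replicate 1, 2 or 3 of both groups. Neo1, a co-receptor in iron sensing, had a log2 fold change of 0.20 (limma adjusted p = 0.035, and 0.054 with the replicate block), and its call was lost without 5 of the 6 libraries in turn (adjusted p from limma 0.057 to 0.12). Bmp6, Tmprss6 and Epas1 were at 10 reads or fewer and were not called.

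Calls among the iron-sulfur and heme genes went in both directions, with small changes. Of 18 mitochondrial genes 1 was called higher and 2 lower, and of 11 cytosolic genes also 1 higher and 2 lower. Over all genes 20.4% were called, and 32.6% of those with at least 10 CPM, so neither list stood out from that background. Of 18 genes for mitochondrial iron import and cluster assembly, the mitochondrial iron importer gene Slc25a37 rose from 90.5 to 111 CPM (log2 fold change 0.30, limma adjusted p = 0.0019), Glrx5 fell from 84.4 to 70.0 CPM (-0.27, adjusted p = 0.0050, limma) and the chaperone gene Hspa9 fell from 1275 to 1173 CPM (-0.12, adjusted p = 0.0037, limma). The list had a median log2 fold change of -0.10. Without the mean-variance trend the adjusted p from limma was 0.098 for Slc25a37, 0.078 for Glrx5 and 0.28 for Hspa9, and none of these genes was called when any 1 replicate number was left out of both groups (0.051 to 0.11). Under quantile normalization Hspa9 had a log2 fold change of -0.062 (adjusted p = 0.31, limma). Of 11 cytosolic assembly genes, Ciao1 rose (log2 fold change 0.43, limma adjusted p = 0.0037) while Glrx3 (-0.29, adjusted p = 0.0024) and Ciapin1 (-0.25, adjusted p = 0.011, limma) fell. The call of Ciapin1 was lost without siCtrl replicate 1 (adjusted p from limma 0.065). Without replicate 3 of both groups none of them was called (adjusted p from limma 0.10, 0.17 and 0.15).

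Of 14 heme genes, 2 were called higher and 4 lower, beside 15.9% higher and 16.6% lower over genes with at least 10 CPM. The heme transporter gene Slc48a1 fell from 292 ± 12.5 CPM to 230 ± 13.4 CPM (SD, n = 3 each; log2 fold change -0.34, limma adjusted p = 1.3e-05). Cpox, an enzyme of heme synthesis, rose from 124 to 147 CPM (log2 fold change 0.25, limma adjusted p = 0.0020), a call lost without replicate 2 or 3 of both groups (adjusted p from limma 0.097 and 0.14). Hmox1, the inducible enzyme that frees iron from heme, was at 79.7, 84.5 and 78.0 CPM in siCtrl and 90.9, 92.7 and 96.6 CPM in siAldoa (log2 fold change 0.21, limma adjusted p = 0.020). The Hmox1 call was lost without siCtrl replicate 1 or 3 or siAldoa replicate 2 or 3 (adjusted p from limma 0.057 to 0.088). The lower calls included those of Blvra (log2 fold change -0.40) and Alad (-0.25), the last named after its values were seen, with limma adjusted p of 0.020 and 0.030. Without 1 library they ranged up to 0.13 and 0.20, each lost without 4 of the libraries in turn, and with the replicate block Alad had an adjusted p from limma of 0.068.

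Ceruloplasmin needs copper to work as a ferroxidase, so 10 genes of copper supply and metal buffering were also read. The metallothionein genes, whose products bind copper and zinc, were called higher. Mt1 was at 96.7, 99.3 and 107 CPM in siCtrl and 189, 207 and 220 CPM in siAldoa, or 203% of the control (95% interval of the log2 fold change 0.89 to 1.14, limma adjusted p = 1.3e-11). Mt2 was at 15.9, 18.1 and 16.9 CPM in siCtrl and 30.8, 34.2 and 47.7 CPM in siAldoa (log2 fold change 1.08, limma adjusted p = 2.4e-06). In both genes every siAldoa library was well above every siCtrl library, and both calls held in all 17 alternatives.

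The copper carriers changed less. Atp7a, which loads copper onto secreted proteins, was called higher (20.8 ± 3.4 against 26.7 ± 1.9 CPM, SD, n = 3 each; log2 fold change 0.36, limma adjusted p = 0.047) with overlapping groups. The copper chaperone gene Atox1, which feeds Atp7a, was called lower (log2 fold change -0.23, limma adjusted p = 0.039). Neither call was firm. Atp7a was lost in 13 of 17 alternatives, with adjusted p from limma of 0.062 with the replicate block and up to 0.20 without 1 library, and Atox1 was lost without siCtrl replicate 2 or 3 or siAldoa replicate 1 or 2 (0.13 to 0.20). Atp7b, the copper pump of hepatocytes, had at most 3 reads per library.

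**Figure D4:**
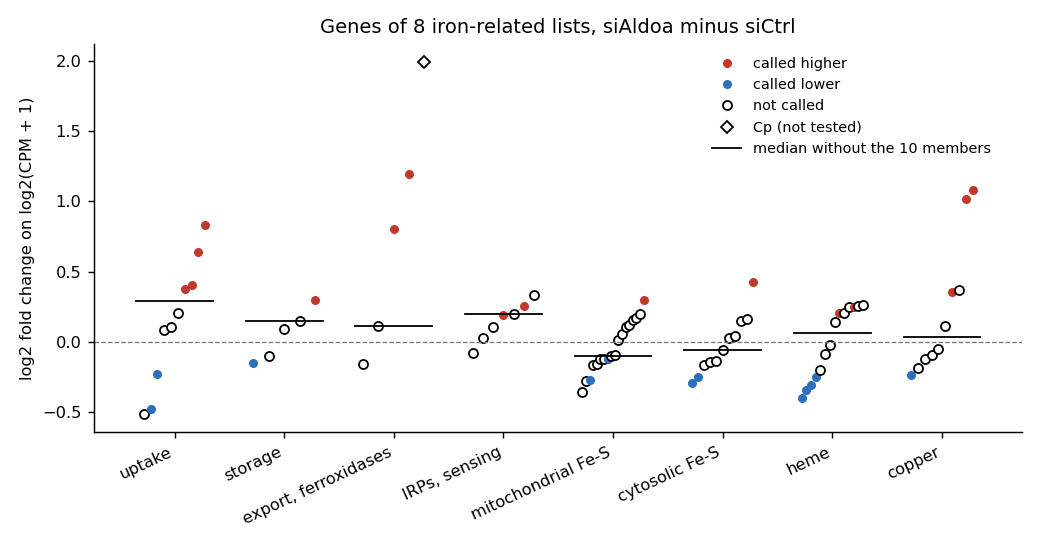
Log2 fold changes on the log2(CPM + 1) scale for every gene of 8 iron-related lists, with 1 point per gene, filled where called, and a line at the median of each list without the 10 members. Most genes lie between -0.5 and 0.5, and the highest points are Cp, Slc40a1, Mt1 and Mt2.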

How the data were processed

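Poly(A) RNA of 6 NIH/3T3 libraries was sequenced. Spike-in RNA was added to the lysis buffer in replicate 1 and to the extracted RNA in replicates 2 and 3. The authors aligned reads to mm10 (Bowtie2, version 2.2.7), reduced each sample to the same number of reads by random subsampling, counted per gene and deposited CPM of an effective library size. Annotation release, use of strand and reads mapping to several places are not given in the sources used here. A deposited table of the authors' own log2 fold changes and p-values was not used. All CPM values were whole multiples of 1 read within 0.001 reads (100%), so reads per gene could be recovered. The stated minimum of 12 reads was not met by 1834 genes.

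Groups were taken from the labels and compared on the log2(CPM + 1) scale by two-sided tests in limma (3.58.1, under R 4.3.3), using its mean-variance trend. P-values were adjusted by Benjamini-Hochberg across the whole table. edgeR's quasi-likelihood test (version 4.0.16) and DESeq2 (version 1.42.0) on recovered reads, a pseudocount of 0.1, a minimum of 1 CPM, TMM and quantile scaling, no trend, a replicate block and leaving out libraries (6 single libraries and 3 replicate numbers of both groups) were alternatives. The fit was tested on simulated data. The 10 members and all lists were chosen with earlier results of these data known. List genes without a row in the table, such as Trf and Hamp, were not analysed here, and some list genes are not reported here. Named were the members, the 2 highest and 2 lowest called genes of each list, and genes needed to read a member. Of the genes, 17932 matched GENCODE (release M21). Similar transcripts were found with blastn (version 2.17.0, at least 90% identity over 200 bases), and sums with those copies were added after seeing the data. Precision is limited by counting: reads carry no molecular identifiers.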

Additional observations from a re-analysis of the deposited data

How the results depend on the processing

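Cp kept its direction in all alternatives, with a log2 fold change of 2.31 by DESeq2 and between 1.69 and 2.23 with libraries left out. Since Cp was chosen by its fold change in these same libraries, its kept direction is a description and no separate support. The 5 calls among the other 9 genes became 3 without the mean-variance trend, 3 by DESeq2, which gave no adjusted p for Slc40a1, and 1 to 4 with libraries left out. The 14 higher calls among the 70 other iron genes became 6 without the trend, 9 by DESeq2 and 4 to 13 with libraries left out. The 9 lower calls became 0 in limma without the trend (8 at an unadjusted p under 0.05, and 10 by edgeR), 4 by DESeq2 and 1 to 8 with libraries left out, with 5 without siCtrl replicate 3 or siAldoa replicate 1. Ireb2, not called in any fit, ranged from -0.048 to 0.080 with libraries left out and changed sign without siCtrl replicate 2 (-0.031) and without replicate 2 of both groups. Over all genes 3676 calls became 1440 without the trend, 2183 by DESeq2 and 1014 without replicate 3. The cause of these shifts was not tested, beyond the fewer samples in each fit with libraries left out.

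With the replicate number as a block, 4 of the 9 members, 12 higher and 7 lower iron genes and 3170 genes in all were called. The same-numbered libraries deviated together with correlations of 0.03, 0.01 and 0.13 for replicates 1, 2 and 3 over 10059 genes. Those of replicates 1 and 2 were below the highest correlation between libraries with different numbers (0.07), and since not every pair was over 0.1 the numbers were not taken to pair the samples. Genes with few reads, Cp and Slc40a1 among them, are limited by depth.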

Other observations

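Ceruloplasmin is also an acute phase protein, made in greater amounts in inflammation. Of 17 acute phase and inflammatory genes listed, 11 were in the table, and 5 of these were called higher and none lower. Over all genes 10.4% were called higher and 10.0% lower, and of those with at least 10 CPM 15.9% and 16.6%. The summed level of the 11 genes was 155 to 161 CPM in siCtrl and 236 to 269 CPM in siAldoa. Most of that sum came from the signalling and transcription factor genes Stat3, Cebpb, Cebpd, Socs3 and Nfkbia, so it is not a level of secreted acute phase proteins. The transcription factor gene Cebpd was at 20.8, 20 and 17.5 CPM in siCtrl and at 40.2, 39.8 and 43.7 CPM in siAldoa (log2 fold change 1.05, limma adjusted p = 1.3e-07). Stat3, which carries signals of the interleukin family and was named after its values were seen, was at 72.3, 72.8 and 70.6 CPM in siCtrl and at 117, 110 and 123 CPM in siAldoa (log2 fold change 0.69, limma adjusted p = 1.7e-08). Both had groups that did not overlap and calls that held without each single library.

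The other 3 calls were less firm. The complement gene C3 was at 3.08 ± 1.3 CPM in siCtrl and 6.02 ± 1.2 CPM in siAldoa (SD, n = 3 each; limma adjusted p = 0.030, and 0.072 with the replicate block). Nfkbia and Cebpb, named after their values were seen, had log2 fold changes of 0.51 and 0.41 (limma adjusted p = 0.019 and 0.016). Each of these calls was lost without 4 of the 6 libraries in turn, with adjusted p from limma of up to 0.19 for C3, 0.16 for Nfkbia and 0.16 for Cebpb. The classic members Saa3 and Lcn2 had at most 2 reads per library, Orm2 at most 4 and Itih4 at most 6, and none of them was called. Il6 had at most 7 reads (log2 fold change 0.54, limma adjusted p = 0.18), and Socs3 had a log2 fold change of 0.10 (adjusted p = 0.70, limma).

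The fibroblast markers did not move as a group. Col1a2 fell from 4949 to 3635 CPM (log2 fold change -0.44) and Col1a1 from 3196 to 2546 CPM (-0.33), while Pdgfrb, a growth factor receptor gene, rose from 22.2 to 49.9 CPM (1.14) and Fn1 from 990 to 1217 CPM (0.30). All of these calls by limma held without each single library.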
